A study of Mus musculus with 12 samples.

Results

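The 7 genes described here mark injury of the kidney tubule (Lcn2, Havcr1, Spp1 and Clu) and adhesion between cells (Vcam1, Icam1 and Cd44). They were found by symbol in a table of kidney array values, using probe sets annotated to that symbol alone and, where a gene had several, the brightest. Of the 7, 6 were measured, each by 1 probe set, among 19936 genes named in this way, and all 6 were among the 16480 that passed a filter on low values. Spp1, which encodes the secreted phosphoprotein osteopontin, was paired with no probe set in the annotation used and was not analysed here.

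The arrays measured RNA from the frozen kidneys of 6-month-old mice, 3 in each of 4 groups, and each mouse had an array of its own. FVB mice had no diabetes and a D6+/+ genotype, and D6 mice were knockouts (D6-/-) without diabetes. OVE mice had diabetes and a D6+/+ genotype, and OVE-D6 mice were knockouts (D6-/-) with diabetes. D6 is the protein of Ackr2, an atypical receptor that takes up inflammatory CC chemokines without signalling. All groups were on the FVB strain, and the deletion, which came from C57BL/6 mice, had been bred into FVB for at least 10 generations. Both knockout groups can therefore also carry C57BL/6 sequence beside Ackr2. Icam1 is on chromosome 9, as is Ackr2, with 828 tested genes between them, and no other member is on that chromosome. How far such sequence reaches was not tested. Its effects on any member cannot be told apart from those of the deletion. In OVE mice a transgene expressed in pancreatic beta cells destroys those cells, so the diabetes is a lack of insulin.

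Lcn2 encodes neutrophil gelatinase-associated lipocalin, an iron-carrying protein that injured tubule cells and neutrophils secrete. Havcr1 encodes kidney injury molecule 1, a phosphatidylserine receptor that appears on injured proximal tubule cells and takes up dead cells. Clu encodes clusterin, a secreted chaperone. Vcam1 and Icam1 encode immunoglobulin-family adhesion molecules that bind integrins of leukocytes, and inflammatory signals through NF-kappaB are known to induce both in endothelium and tubule. Cd44 encodes the main hyaluronan receptor, carried by leukocytes and by regenerating tubule cells, and it also binds osteopontin. In whole-kidney RNA, more cells of a type and more RNA per cell cannot be told apart.

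The deposited values are on a log2 scale, so a difference of 1 is a doubling of signal, and levels of different genes are not comparable because each probe set has its own brightness. The kidney label held against cell type markers: the 10 proximal tubule markers and the 8 endothelial markers were all above 5.93 in every group. That background level is the 95th percentile of the mean values of 1027 olfactory receptor genes, few of which a kidney uses. The probe set of Ackr2 read 6.74 to 7.04 over all arrays and did not separate the genotypes. Whether it covers the deleted part is not given in the sources used here. OVE replicate 3 stood apart from its group, at 6.9 on the first principal component, where OVE replicates 1 and 2 scored 27.0 and 29.4 and the 9 arrays of the other groups scored -15.1 to 5.2. Without it, 11.5% of tested genes passed in OVE against FVB (7.28% with it), 4.05% in OVE-D6 against OVE (0.231% with it) and 2.29% for the interaction (0% with it). Marker calls that change without it are given both ways. The differences below come from limma, which was fitted to 16480 genes over all 12 arrays, and a gene passed when its Benjamini-Hochberg adjusted p was below 0.05. Separate mice gave the 3 samples of each group, so the standard error (SE) covers the spread between animals.

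The comparison of OVE with FVB addresses what diabetes did to the kidney with intact D6. All 6 markers were higher in every OVE mouse than in every FVB mouse, and 5 passed the test. Over all tested genes 7.28% passed, 4.9% as higher and 2.38% as lower, and 13.6% had 3 OVE arrays above 3 FVB arrays. The median log2 difference was 1.56 over the 6 markers and -0.018 over all tested genes.

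Lcn2 had log2 values of 6.74, 6.94 and 6.54 in FVB mice and of 10.23, 11.51 and 9.77 in OVE mice. Its log2 difference of 3.76 ± 0.53, or 13.6-fold (SE, n = 3 per group, limma adjusted p = 0.00341) was the biggest in either direction among all 16480 tested genes. The OVE mice differed widely among themselves, with an SD of 0.90 against 0.20 in FVB, yet the lowest OVE mouse was far above the highest FVB mouse. Havcr1 read 7.77, 7.42 and 7.24 in FVB mice and 8.96, 10.29 and 9.90 in OVE mice. Its log2 difference was 2.24 ± 0.35, or 4.71-fold (limma adjusted p = 0.00499), and it ranked sixth by size. Clu read 9.91, 9.81 and 9.87 in FVB mice and 10.09, 11.08 and 10.24 in OVE mice. These groups did not overlap, but only OVE replicate 2 was far above FVB, and the log2 difference of 0.61 ± 0.22 did not pass (limma adjusted p = 0.11).

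Of the adhesion molecules, Vcam1 read 7.99, 7.83 and 7.92 in FVB mice and 9.17, 9.92 and 8.65 in OVE mice. It rose 2.52-fold (log2 difference 1.34 ± 0.24, limma adjusted p = 0.00934). Icam1 read 8.45, 8.13 and 8.39 in FVB mice and 9.06, 9.36 and 9.02 in OVE mice. It rose 1.77-fold (log2 difference 0.83 ± 0.11, limma adjusted p = 0.00239), the smallest change and the smallest SE of the 5 that passed. Cd44 read 6.35, 6.12 and 6.30 in FVB mice, close to background, and 7.77, 8.88 and 7.50 in OVE mice. It rose 3.46-fold (log2 difference 1.79 ± 0.27, limma adjusted p = 0.0043). The same 5 markers passed and Clu did not under each of the 21 alternatives run, which included leaving out each array. Over the arrays left out, 2.18% to 11.5% of all tested genes passed.

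**Figure D1:**
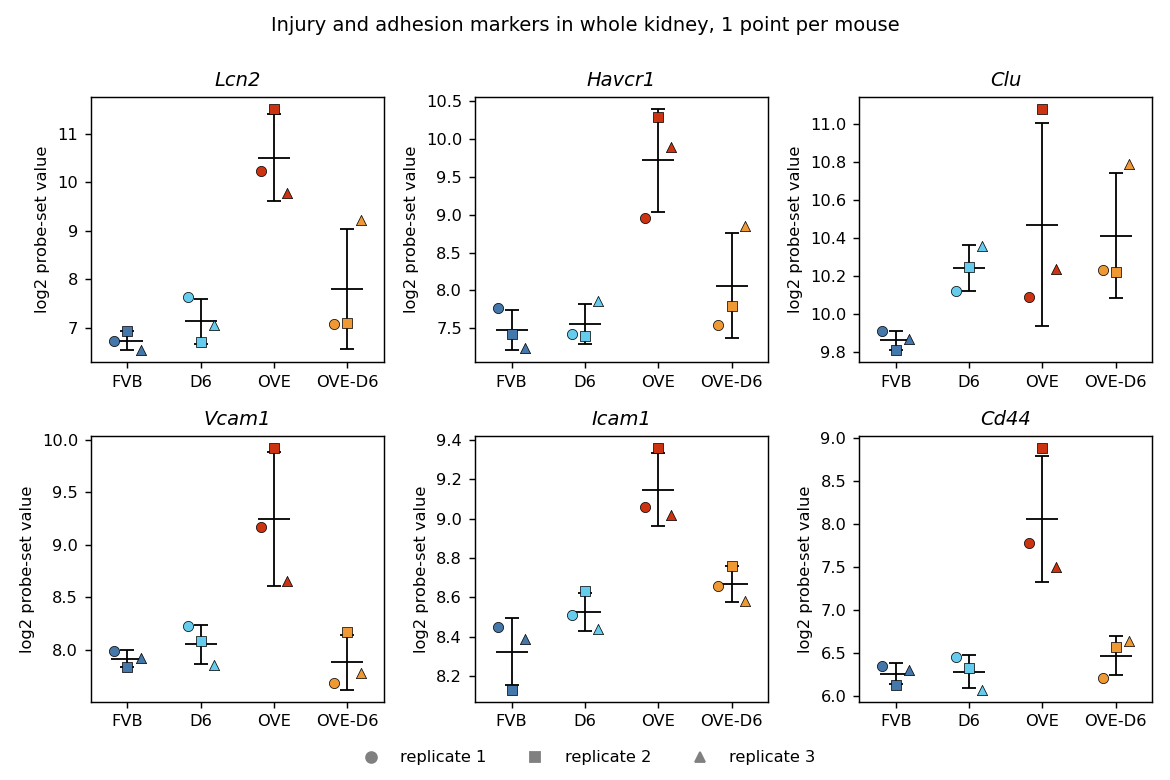
Log2 probe-set values of the 6 measured markers in the 4 groups, with 1 coloured point per mouse, a shape for each replicate number, and the group mean ± SD in black. In each panel the 3 OVE mice are above the 3 FVB mice, and Lcn2, Havcr1 and Clu each have 1 high OVE-D6 mouse, replicate 3 (9.23, 8.85 and 10.79).

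Because 4 of the genes that rose have a promoter window in RefSeq's mouse assembly GRCm38.p6, 250 bases before to 50 after a gene's start, these windows were searched for binding motifs of inflammatory factors. No window is listed for Clu or Vcam1. The motifs were 2 forms of the NF-kappaB site (a loose one, GGG and CC with any 5 bases between them, and GGAANTTCC), TTCNNNGAA for STAT factors and TGANTCA for AP-1, on both strands. The loose form had a match in 50.8% of all 32851 windows, against 0.928% for GGAANTTCC, 8.3% for TTCNNNGAA and 7.81% for TGANTCA. The stretches before the start of Icam1, Lcn2 and Cd44 are shown to let the matches be seen, 5′ to 3′ on the gene's own strand, with matches in capitals.

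Icam1, chr9:21015690-21015939, plus strand: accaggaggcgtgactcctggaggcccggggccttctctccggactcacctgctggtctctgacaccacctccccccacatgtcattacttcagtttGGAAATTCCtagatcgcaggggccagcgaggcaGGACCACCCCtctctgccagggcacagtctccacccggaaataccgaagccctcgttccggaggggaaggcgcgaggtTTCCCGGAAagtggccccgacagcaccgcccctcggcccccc

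Lcn2, chr2:32387740-32387989, minus strand: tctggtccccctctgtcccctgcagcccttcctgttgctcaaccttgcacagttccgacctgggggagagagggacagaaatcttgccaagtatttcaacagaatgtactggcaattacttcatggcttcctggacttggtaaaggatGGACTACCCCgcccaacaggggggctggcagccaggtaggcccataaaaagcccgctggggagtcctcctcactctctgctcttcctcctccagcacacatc

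Cd44, chr2:102901670-102901915, minus strand: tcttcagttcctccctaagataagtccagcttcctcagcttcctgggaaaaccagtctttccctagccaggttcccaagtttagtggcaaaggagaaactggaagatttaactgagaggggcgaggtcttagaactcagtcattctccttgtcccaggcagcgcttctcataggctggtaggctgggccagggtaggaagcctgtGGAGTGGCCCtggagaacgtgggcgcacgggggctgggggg

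The Icam1 stretch held GGAAATTCC, a match of the stricter NF-kappaB motif, beginning 153 bases before the start. It also held GGACCACCCC at 120 bases, a reverse-strand match of the loose motif, and the STAT motif TTCCCGGAA at 42 bases before the start. Lcn2 held GGACTACCCC at 102 bases before the start, again a loose match, which overlaps a GC box (GGGCGG on the other strand). Cd44 held the loose match GGAGTGGCCC at 45 bases before the start, and its printed stretch stops 4 bases short of that start. Its window held another loose match 2 bases after the start, which overlaps a GC box. Of the 3 Havcr1 windows 1 held an AP-1 match (TGAATCA) 11 bases after a start, and the windows of Spp1 held none of these motifs. These are matches of letters, not measured binding.

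The comparison of OVE-D6 with OVE addresses what loss of D6 did in the diabetic kidney. Vcam1 and Cd44 fell, and 5 of the 6 markers were lower in every OVE-D6 mouse than in every OVE mouse, Clu being the exception. Over all tested genes 0.231% passed, 0.182% as lower and 0.0485% as higher. The share with 3 OVE-D6 arrays below 3 OVE arrays was 8.24%, and with all above 9.37%. The median log2 difference was -1.48 over the markers and 0.01 over all tested genes. This comparison uses the same OVE arrays as the one above, so a high OVE value enlarges both differences.

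Vcam1 read 7.68, 8.17 and 7.78 in OVE-D6 mice, against a lowest OVE value of 8.65, and was 2.59-fold lower (log2 difference -1.37 ± 0.24, SE, n = 3 per group, limma adjusted p = 0.0475). Cd44 read 6.21, 6.56 and 6.63, against a lowest OVE value of 7.50, and was 3.00-fold lower (log2 difference -1.59 ± 0.27, limma adjusted p = 0.0437). Of the OVE-D6 mice, 2 were below all 6 non-diabetic mice for Vcam1, and 2 were slightly above them for Cd44, where the highest non-diabetic value was 6.45. Icam1 read 8.66, 8.76 and 8.58, below the 3 OVE mice but above the 3 FVB mice. Its log2 difference from OVE of -0.48 ± 0.11 did not pass (limma adjusted p = 0.0906).

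Lcn2 read 7.08, 7.11 and 9.23 in OVE-D6 mice. Replicates 1 and 2 were within the range of D6 mice, while replicate 3 was nearer the lowest OVE mouse at 9.77. The log2 difference of -2.70 ± 0.53 was the biggest of all tested genes but did not pass (limma adjusted p = 0.071). Havcr1 read 7.54, 7.79 and 8.85, with replicate 3 just below the lowest OVE mouse at 8.96, and its log2 difference of -1.66 ± 0.35 did not pass (limma adjusted p = 0.079). Clu read 10.23, 10.22 and 10.79 and overlapped OVE, with a log2 difference of -0.06 and a 95% interval of -0.54 to 0.41.

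Which markers passed here depended on single arrays, without a change of direction except for Clu. Without OVE-D6 replicate 3, Lcn2 and Havcr1 passed (log2 differences -3.41 and -2.05, limma adjusted p = 0.0123 and 0.0375) and Vcam1 and Cd44 did not (adjusted p = 0.0971 and 0.0774), while 0.115% of all tested genes passed. Without OVE replicate 3, Lcn2, Vcam1, Icam1 and Cd44 passed (adjusted p = 0.01, 0.000724, 0.0248 and 0.00138), and so did 4.05% of all tested genes. Without OVE replicate 1 only Havcr1 passed (adjusted p = 0.0372), and without OVE replicate 2 only Cd44 did (adjusted p = 0.0252), with 0.109% and 0.0364% of all tested genes. None passed without any single FVB or D6 array or without OVE-D6 replicate 1 or 2, where the smallest adjusted p of a marker was between 0.0606 and 0.201. In those settings 0.00607% to 0.0364% of all tested genes passed. Neither Vcam1 nor Cd44 passed after quantile normalisation, with eBayes in its trend and robust form, or in a fit of the OVE and OVE-D6 arrays alone. With array weights Lcn2 passed beside Vcam1 and Cd44 (-2.80, adjusted p = 0.0488), as did 0.552% of all tested genes.

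**Figure D2:**
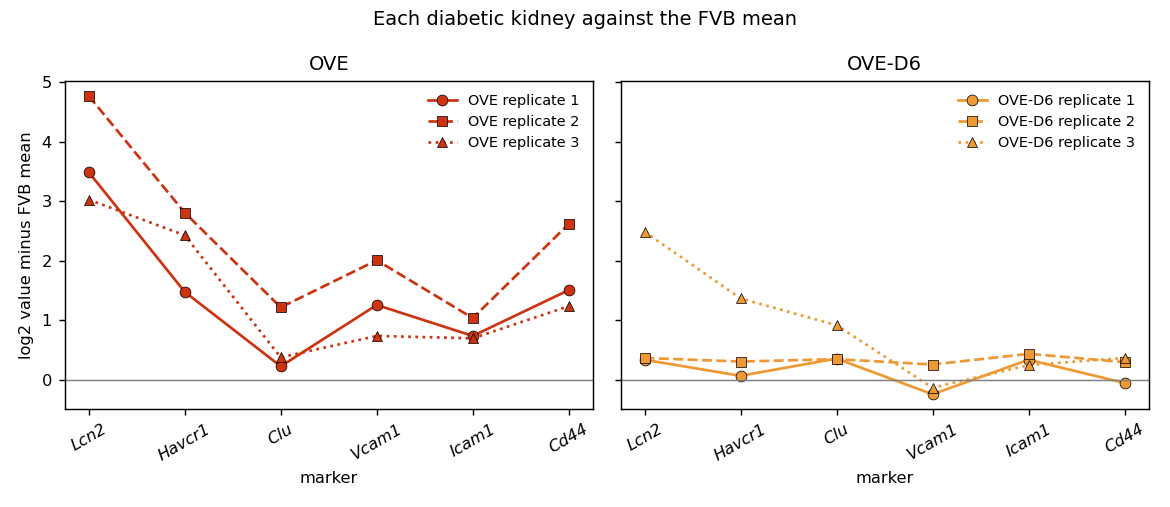
Log2 value of each diabetic mouse minus the FVB mean for the 6 markers, with OVE mice on the left and OVE-D6 mice on the right, 1 line and symbol per mouse. OVE replicate 2 is the highest of its group for all 6 markers, and OVE-D6 replicate 3 is raised for Lcn2 (2.49), Havcr1 (1.37) and Clu (0.92) but not for Vcam1 (-0.13).

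The diabetic mice thus varied in 2 ways that the tests average over. OVE replicate 2 was the highest of its group for all 6 markers, from 1.04 above the FVB mean for Icam1 to 4.77 for Lcn2 on the log2 scale. OVE replicate 3 was the lowest of its group for Lcn2, Vcam1, Icam1 and Cd44 but not for Havcr1, where it was 2.43 above the FVB mean and replicate 1 only 1.48. Among OVE-D6 mice, replicate 3 was above all 6 non-diabetic mice for Lcn2, Havcr1, Clu and Cd44, whereas replicate 1 was above them for Icam1 alone. For Vcam1 no OVE-D6 mouse was above all non-diabetic mice. The median SD over the markers was 0.66 in OVE, 0.29 in OVE-D6, 0.19 in D6 and 0.14 in FVB, while over all tested genes it was 0.123, 0.099, 0.105 and 0.096. The limma model pools the groups' variances for each gene, so its SE does not follow these differences in spread.

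The interaction compares the diabetes effect in knockouts with that in wild types. It was negative for all 6 markers, that is, the fitted diabetes difference was smaller in knockouts, but none passed the test over all genes. No gene at all passed (0% of those tested), while 5 of the 6 markers and 9.99% of all tested genes had an unadjusted p below 0.05 by limma. Lcn2 had the biggest interaction of all tested genes, -3.10 ± 0.75 on the log2 scale (limma adjusted p = 0.225). The interaction was -1.74 ± 0.49 for Havcr1, -1.61 ± 0.38 for Cd44, -1.51 ± 0.34 for Vcam1 and -0.69 ± 0.15 for Icam1 (limma adjusted p = 0.287, 0.225, 0.205 and 0.196). For Clu it was -0.44 ± 0.31, with a 95% interval of -1.11 to 0.23. Without OVE-D6 replicate 3 the interaction was -3.81 for Lcn2 (adjusted p = 0.097). Without OVE replicate 3, 377 genes passed, 2.29% of those tested, and 4 markers were among them: Lcn2 (-3.46, adjusted p = 0.0364), Vcam1 (-1.81, adjusted p = 0.00391), Icam1 (-0.75, adjusted p = 0.0312) and Cd44 (-1.88, adjusted p = 0.0119).

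**Figure D3:**
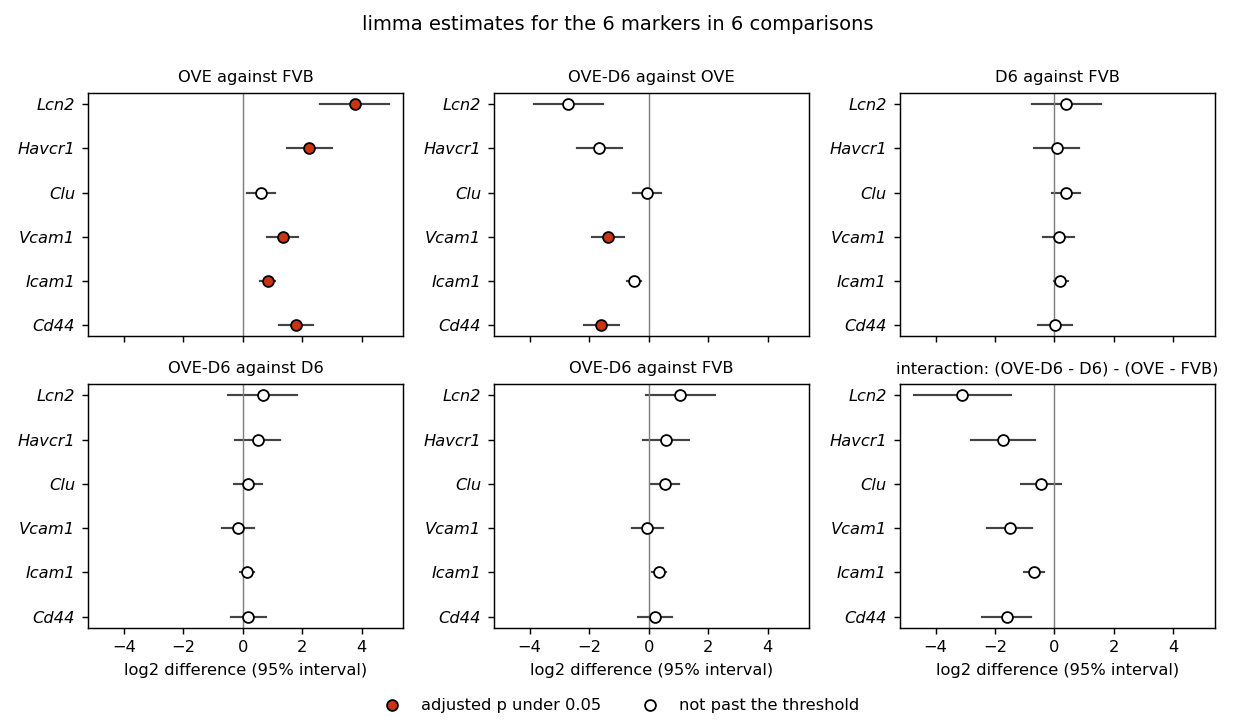
Log2 differences of the 6 markers in 6 comparisons, estimated by limma from 3 mice per group, with 95% intervals as bars and red points for an adjusted p below 0.05. Red points are 5 in OVE against FVB and 2 in OVE-D6 against OVE, and the other 4 panels have none, although 5 interaction intervals lie wholly below 0.

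Diabetes in the knockouts, OVE-D6 against D6, gave no marker that passed, none with an unadjusted p below 0.05 and none whose groups did not overlap. Over all tested genes 0.285% passed, 9.98% had an unadjusted p below 0.05 by limma, and 7.72% and 8.68% had all OVE-D6 arrays above or below all D6 arrays. The D6 values were 7.63, 6.71 and 7.06 for Lcn2 and 7.42, 7.39 and 7.86 for Havcr1. The log2 differences were 0.67 (95% interval -0.49 to 1.82) for Lcn2 and 0.50 (-0.25 to 1.26) for Havcr1. Both intervals still allow a rise of more than 1 on the log2 scale. For Lcn2 the difference was -0.045 without OVE-D6 replicate 3, so its sign rests on that mouse, and the difference of Havcr1 was 0.11 without that mouse. Cd44 read 6.45, 6.32 and 6.07 in D6 mice and Vcam1 8.22, 8.08 and 7.85. Their intervals, -0.40 to 0.77 and -0.70 to 0.36, both end below the differences seen in OVE against FVB. The intervals of Lcn2, Havcr1 and Icam1 also end below their own differences there. That of Clu, -0.30 to 0.64, includes its difference of 0.61.

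Against healthy wild types, OVE-D6 mice did not overlap FVB mice for Lcn2, Clu and Icam1, all higher in OVE-D6, but none passed (limma adjusted p = 0.44, 0.316 and 0.206). All OVE-D6 arrays were above all FVB arrays in 11.1% of tested genes and below them in 9.78%, and 0.57% passed, 0.328% as higher. An unadjusted p below 0.05 by limma was seen for Clu and Icam1, 2 of the 6 markers, and for 12.9% of all tested genes. The log2 difference was 1.06 ± 0.53 for Lcn2, 0.54 ± 0.22 for Clu and 0.34 ± 0.11 for Icam1. Without OVE-D6 replicate 3 the Lcn2 difference was 0.35. Vcam1 differed by -0.04 ± 0.24 and changed sign without FVB replicate 1 or OVE-D6 replicate 1 or 3.

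Without diabetes, D6 against FVB, no marker passed or had an unadjusted p below 0.05 by limma, against 3.82% of all tested genes. All tested genes gave 2 that passed, 0.0121%, both lower. Clu was the marker that separated the groups, with D6 values of 10.12, 10.25 and 10.36 above an FVB maximum of 9.91, as did 5.59% of all tested genes in that direction and 4.2% in the other. Its log2 difference was 0.38 ± 0.22 (limma adjusted p = 1). The D6 values of Icam1 were 8.51, 8.63 and 8.44 and overlapped FVB. The differences of Lcn2, Havcr1, Vcam1, Icam1 and Cd44 were 0.40, 0.08, 0.14, 0.20 and 0.02.

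The order of the group means was the same for all markers but Vcam1. Lcn2, Havcr1 and Icam1 ran from FVB through D6 and OVE-D6 to OVE, as did Cd44 and Clu. Vcam1 ran from OVE-D6 (7.88) through FVB (7.91) and D6 (8.05) to OVE (9.25). In all but Clu, the step up to OVE was the only one between neighbours without overlap. Clu had such a step from FVB to D6, with no overlap, and its D6, OVE-D6 and OVE means of 10.24, 10.41 and 10.47 overlapped.

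Among the partners of these markers, Slc22a17, which encodes the 24p3 receptor that takes up Lcn2, fell with diabetes in both genotypes. It read 8.88, 8.89 and 9.01 in FVB and 8.88, 8.94 and 8.90 in D6 mice, but 8.47, 8.46 and 8.47 in OVE and 8.47, 8.48 and 8.50 in OVE-D6 mice. The 6 diabetic mice thus lay within 8.46 to 8.50 and all 6 non-diabetic mice at 8.88 or above, whatever the D6 genotype. The log2 difference was -0.46 ± 0.06 in OVE against FVB (limma adjusted p = 0.00275) and -0.42 ± 0.06 in OVE-D6 against D6 (limma adjusted p = 0.0156), and the interaction was 0.04 ± 0.09. In the knockouts the adjusted p was 0.0546 to 0.077 without any 1 of the 6 arrays compared. OVE-D6 replicate 3, with its high Lcn2, had 8.50 for Slc22a17, like the other diabetic mice.

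Lrp2, which encodes megalin, the proximal tubule receptor that also takes up Lcn2 and clusterin, fell by 0.35 ± 0.08 in OVE against FVB on the log2 scale (limma adjusted p = 0.0269). It differed by -0.16 ± 0.08 in OVE-D6 against D6, which did not pass, and its interaction of 0.19 ± 0.12 did not pass either. The Lrp2 call was lost without any 1 FVB array or OVE replicate 1 or 2 (adjusted p = 0.0583 to 0.105). For this list and those below, the shares over all tested genes in OVE against FVB are 4.9% risen and 2.38% fallen. Of 19 tested receptors and partners of Lcn2, Spp1, Clu and Havcr1, 2 rose and 4 fell in OVE, with a median log2 difference of 0.14. The others were Vldlr, a lipoprotein receptor (-0.36 ± 0.08), and Itga8, an integrin subunit that binds osteopontin (-0.35 ± 0.09), which fell, and Itga5, a fibronectin receptor subunit (0.60 ± 0.12), and the gelatinase Mmp9 (0.31 ± 0.08), which rose. The number that fell was 2 without FVB replicate 1 and 1 without FVB replicate 2 or 3 or OVE replicate 1 or 2. Without FVB replicate 3 or OVE replicate 2 none rose, and 3 rose without OVE replicate 3. In OVE-D6 against OVE none of the 19 passed.

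**Figure D4:**
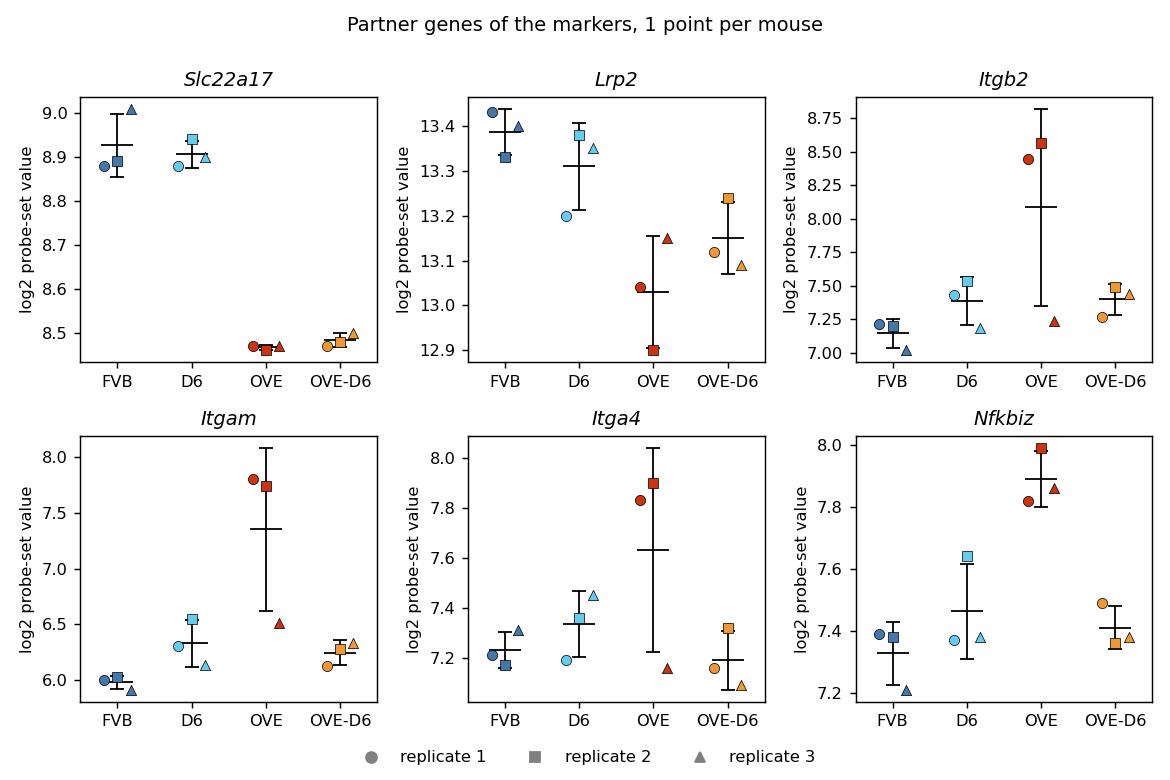
Log2 probe-set values of 6 partner genes in the 4 groups, with 1 point per mouse, shapes for replicate numbers and the group mean ± SD in black. Slc22a17 splits by diabetes in both genotypes (8.46 to 8.50 against 8.88 to 9.01), whereas Itgam and Itgb2 are high in OVE replicates 1 and 2 only.

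Among 14 tested ligands of Vcam1 and Icam1 and their linkers, 2 rose in OVE and none fell. Itgam and Itgb2 encode the chains of Mac-1, a leukocyte integrin that binds Icam1. Itgam read 6.00, 6.02 and 5.91 in FVB mice, close to background, and 7.81, 7.74 and 6.51 in OVE mice (log2 difference 1.38 ± 0.26, limma adjusted p = 0.0108). Itgb2 read 7.22, 7.20 and 7.02 in FVB and 8.45, 8.57 and 7.24 in OVE mice (0.94 ± 0.26, limma adjusted p = 0.0485). OVE replicate 3 was thus hardly above FVB for Itgb2, although its Vcam1 and Icam1 were. The Itgb2 call ended under 15 of 21 alternatives. Itga4, the subunit that binds Vcam1, read 7.83, 7.90 and 7.16 in OVE against 7.21, 7.17 and 7.31 in FVB mice and did not pass (limma adjusted p = 0.146). Over the arrays left out in turn, 0 (without OVE replicate 2) to 5 (without OVE replicate 3) of the 14 rose.

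Of 14 tested other adhesion molecules, Selplg, the leukocyte ligand of P-selectin (0.86 ± 0.17), and Alcam (0.55 ± 0.14) rose in OVE, none fell, and the median log2 difference was 0.14. Among those that did not pass were the endothelial genes Icam2 (0.02), Sele, which encodes E-selectin (0.15), Pecam1 (0.15) and Cdh5 (0.18). Mcam had the biggest difference of those that did not pass (0.36). Of 11 tested hyaluronan and Cd44 partners 3 rose, among them Cd74, the invariant chain that signals with Cd44 (1.59 ± 0.42), Mmp14, a membrane protease (1.03 ± 0.23), and Lyve1, a hyaluronan receptor (0.54 ± 0.13), and Met, which encodes the hepatocyte growth factor receptor, fell (-0.38 ± 0.10). None of either list passed in OVE-D6 against OVE. In both lists the number that rose was 0 without FVB replicate 3 or OVE replicate 2 and 1 without FVB replicate 1. In the Cd44 list it was also 0 without OVE replicate 1 1 without FVB replicate 2 and 4 without OVE replicate 3.

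Of 12 tested NF-kappaB genes, a list of inhibitors such as Nfkbia and Tnfaip3, subunits such as Rel and Relb, and other targets of the factor, 3 rose in OVE and all 12 had positive differences, with a median of 0.44. They were Birc3 (0.72 ± 0.16), Tnfaip3 (0.57 ± 0.14) and Nfkbiz (0.56 ± 0.09), whose OVE values of 7.82, 7.99 and 7.86 were above FVB values of 7.39, 7.38 and 7.21. In OVE-D6 against OVE all 12 had negative differences, with a median of -0.42, and none passed. These 2 comparisons share the OVE arrays. Without diabetes, in D6 against FVB, all 12 were positive, with a median of 0.12 (0.004 over all tested genes), and none passed. That comparison shares the FVB arrays with OVE against FVB. Over all tested genes 4.9% rose in OVE against FVB. Without OVE replicate 3, 9 of the 12 rose in OVE, and without FVB replicate 1 or 2 or OVE replicate 2 only 1 did. Over all tested genes 11.5%, 4.07%, 2.89% and 2.18% passed in these settings, in either direction.

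Of 28 other tested genes of tubular injury and repair, 13 rose in OVE and none fell, with a median log2 difference of 0.70. Over all tested genes 4.9% rose and 2.38% fell. The 4 that rose most were the protease inhibitor gene Timp1 (1.88 ± 0.30), the keratin gene Krt20 (1.86 ± 0.40), and the fibrinogen chain genes Fgg (1.68 ± 0.38) and Fga (1.28 ± 0.19). The FVB means of Timp1 and Krt20 were below 5.93, so their differences are not exact. Krt20 was above 5.93 in OVE mice only and read 4.79 to 5.71 in the other groups. It can have passed the filter on low values through the OVE arrays, so its rise is not separate support. Krt20 shared the high OVE replicate 2 of the markers, at 5.99, 8.07 and 6.30 in OVE mice, and Timp1 shared the raised OVE-D6 replicate 3, at 5.98, 5.88 and 6.65. In OVE-D6 against OVE only Fga fell (-1.14 ± 0.19, limma adjusted p = 0.0437), a call that ended under 14 of 21 alternatives, and the median was -0.37. The number that rose in OVE was 6 without FVB replicate 3, 8 without OVE replicate 2 and 17 without OVE-D6 replicate 3. Over all tested genes 2.59%, 2.18% and 6.66% passed in these settings, in either direction. None of the 28 passed in OVE-D6 against D6 or FVB. In each comparison 22 were positive, with medians of 0.24 and 0.27, against -0.007 and -0.003 over all tested genes. Both comparisons share the OVE-D6 arrays, with the raised replicate 3, so these signs are not separate support.

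Markers of some other cell types rose in OVE mice, and those of others did not. The mean log2 value of 12 macrophage and monocyte markers was 7.02 to 7.31 in FVB, 7.39 to 7.62 in D6, 8.71, 8.69 and 7.73 in OVE and 7.24 to 7.52 in OVE-D6 mice. Of these, Cd163 was at or below 5.93 in all groups, and Fcgr1 in FVB. In OVE against FVB 10 of the 11 tested ones rose (4.9% of all tested genes), and in OVE-D6 against OVE 3 fell (0.182% of all tested genes). Calls of cell type markers that are in none of the lists above were not checked under the alternatives. The mean of 6 fibroblast and pericyte markers was 8.67 to 9.04 in FVB, 8.87 to 9.13 in D6, 9.24 to 9.88 in OVE and 8.87 to 9.23 in OVE-D6 mice, and 2 of the 6, the matrix genes Dcn and Lum, rose in OVE. Lymphocyte lists were also uneven within OVE. The B and plasma cell list was 7.24, 7.15 and 6.11, against 6.42 to 6.52 in FVB mice. The T and NK cell list was 6.13, 6.14 and 5.68, against 5.64 to 5.68 in FVB mice, which is below background. Of these lists, Cd79a, Ms4a1, Cd3d, Klrb1c and Gzma were at or below 5.93 in all groups, and Cd3g in all but OVE. The part of these cells in the values of Vcam1, Icam1 and Cd44 was not tested.

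For Lcn2, which neutrophils also make, 10 of 12 neutrophil markers were at or below 5.93 in all 4 groups, among them S100a8, S100a9, Ngp, Ltf and Mpo. The list mean lay between 5.02 and 5.30 on all arrays, below background, where a change would hardly show. Only 6 of the 12 passed the filter and were tested, and of these Csf3r rose in OVE (0.60 ± 0.13). Which cells made the Lcn2 RNA was not tested. The endothelial list, where Vcam1 and Icam1 are also made, had means between 9.51 and 9.78 on all arrays, and none of its 8 members passed in OVE against FVB or in OVE-D6 against OVE. The proximal tubule list was 12.32, 12.35 and 12.50 in OVE and 12.49 to 12.56 in FVB mice, and 1 of its 10 members, Lrp2, fell. The list of 7 loop and distal tubule genes was lower, at 11.32 to 11.63 in OVE against 11.80 to 11.95 in FVB mice. Of these, Pvalb, a calcium-binding protein gene (-0.84 ± 0.10), Egf, the epidermal growth factor gene (-0.69 ± 0.12), and Slc12a3, the thiazide-sensitive salt transporter gene (-0.38 ± 0.10), fell. Pvalb was higher in OVE-D6 than in OVE (0.64 ± 0.10, limma adjusted p = 0.0393), as were 0.0485% of all tested genes. That call was not checked under the alternatives.

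**Figure D5:**
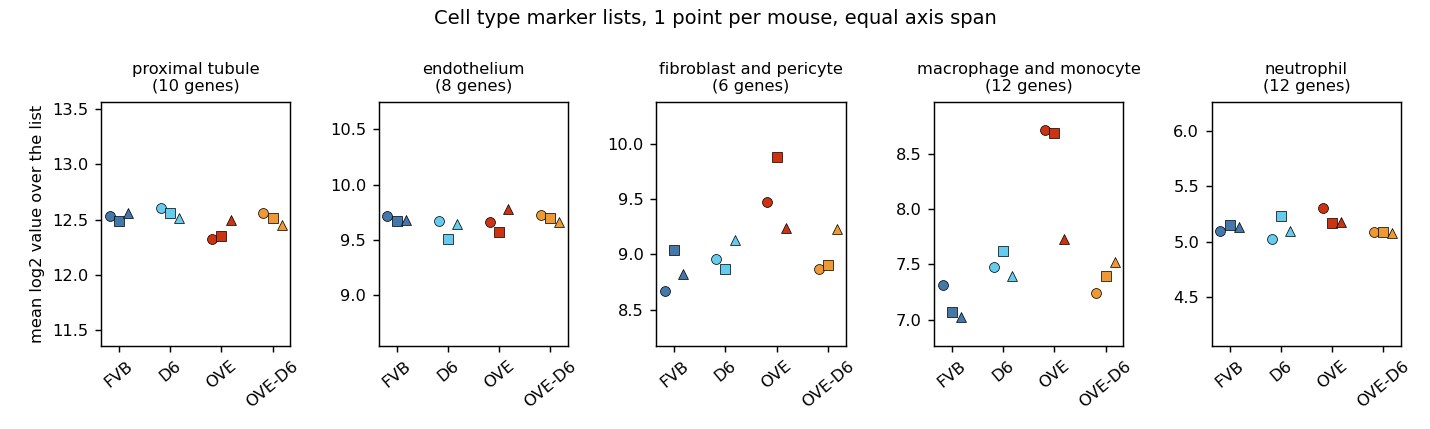
Mean log2 value of each of 5 cell type marker lists on every array (circles, squares and triangles are replicates 1, 2 and 3), with axes of equal span. The macrophage and monocyte list is highest in OVE replicates 1 and 2 (8.71 and 8.69). The neutrophil list, which is below background, keeps to 5.02 to 5.30, and the endothelial list to 9.51 to 9.78.

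The genes whose values followed each marker most closely over the 12 arrays are given as a description, since all points share the 4 groups and 1 table. For Lcn2 they were Septin8, a septin gene, and Smoc2, a matrix glycoprotein gene (Pearson r 0.978 and 0.977, Spearman rho 0.972 for both), and Leprotl1 (r 0.966). For Havcr1 they were the collagen gene Col4a2 (r 0.969), Anxa3, a calcium-binding annexin gene (r 0.961), and Fat1, a giant cadherin gene (r 0.954). Cd44 was followed by Mmp12, the macrophage elastase gene (r 0.979, rho 0.664), Sdc1, the syndecan 1 gene (r 0.974, rho 0.923), and Sbno2 (r 0.973). For Vcam1 the genes were Dock10 (r 0.977), Pip4k2a (r 0.970) and the member Cd44 (r 0.968, rho 0.748). For Icam1 they were Efhd2 (r 0.961), Rcn1 (r 0.945) and Rtn4 (r 0.940). Clu had the loosest matches, Medag (r 0.908), Cenpf (r 0.898) and Lgals1, the galectin 1 gene (r 0.893), and all group means of Medag, 5.01 to 5.56, and those of Cenpf outside OVE, 5.38 to 5.87, were below background.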

How the data were processed

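Per the labels' protocols, kidney RNA of 12 mice was made into sense-strand probe for Affymetrix gene arrays. The authors deposited 1 log2 value per probe set and array; how these were summarised and normalised is not given in the sources used here. Array medians were 6.84 to 6.93, and no further scaling was applied. Of 35556 probe sets, 21789 had 1 gene symbol (1621 had several, 12146 none), updated by Entrez identifier (21698) or accession (3) through a GRCm38.p6 gene table. The brightest probe set stood for a gene.

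Genes above the array's 25th percentile on at least 3 arrays (16480) were tested with limma 3.58.1 in R 4.3.3, using lmFit on group means, 6 contrasts and eBayes, with Benjamini-Hochberg adjustment. The code was tested on simulated data. Members, lists and the naming rule were chosen with earlier results of these data known; the rule named all members, up to 4 called genes per list and direction, and the 3 genes nearest each member by correlation, with genes of the cell type lists as values. Itga4, Icam2, Sele, Pecam1, Cdh5 and Mcam fall outside it and were chosen after their values were seen. Same-numbered replicates were not treated as pairs. The table had no column without a sample. Motifs were searched in RefSeq promoter windows (GRCm38.p6). Figures used Python 3.11.15 with matplotlib 3.10.9.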

Additional observations from a re-analysis of the deposited data

How the results depend on the processing

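Alternatives to the filter, scaling, probe sets, variance model, array weights, samples and pairing were run. For OVE against FVB, 5 markers passed under every one, while 2.18% to 11.5% of all tested genes passed over the arrays left out in turn. For OVE-D6 against OVE, the 2 markers that passed became 1 with no filter. They became 0 with quantile normalisation, with eBayes with trend and robust settings, with only the groups compared, or with the replicate number as a block. With array weights 3 passed, and so did 0.552% of all tested genes. Over the arrays left out in turn, 0 to 4 (without OVE replicate 3) markers passed, and 0.00607% to 4.05% of all tested genes. For the interaction, 0 to 4 (without OVE replicate 3) markers passed over the arrays left out, and 0% to 2.29% of all tested genes. In the other 3 comparisons none passed under any alternative. The replicate block changed no other call of a marker; same-numbered arrays deviated together (r above 0.1) in 2 of 18 pairs, so the numbers were not taken as pairs.

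Signs changed for small differences. Clu in OVE-D6 against OVE ranged from -0.253 to 0.243 over the arrays left out, above 0 without OVE replicate 2 (0.243) or OVE-D6 replicate 1 or 2 (0.029, 0.033). In D6 against FVB, Havcr1 was -0.04 and -0.076 without FVB or D6 replicate 3 (highest 0.225), and Cd44 was -0.046 and -0.061 without FVB replicate 2 or D6 replicate 1 (highest 0.127). In OVE-D6 against D6 without OVE-D6 replicate 3, Lcn2 was -0.045 and Clu -0.02 (highest without another array 1.032 and 0.264). In OVE-D6 against FVB, Vcam1 was 0.003 without FVB replicate 1 and 0.063 and 0.012 without OVE-D6 replicate 1 or 3 (lowest -0.186). The cause was not tested, beyond the loss of that array.

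Over all genes, the number that passed ranged over all alternatives from 359 to 1901 (1200 as reported) in OVE against FVB, from 0 to 668 (38) in OVE-D6 against OVE and from 0 to 377 (0) for the interaction, each highest without OVE replicate 3. It ranged from 17 to 87 (47) in OVE-D6 against D6, from 30 to 272 (94) in OVE-D6 against FVB and from 1 to 4 (2) in D6 against FVB. Among listed genes in OVE against FVB, settings other than leaving out an array gave 11 to 14 risen (13) and 0 to 1 fallen (0) injury genes, 1 to 2 risen (2) and 1 to 4 fallen (4) partners of the soluble markers, and 0 to 3 risen integrins (2). They gave 0 to 2 risen adhesion molecules (2), 0 to 4 risen (3) and 0 to 1 fallen (1) Cd44 partners, and 1 to 6 risen NF-kappaB genes (3). Of 33 calls of listed genes, 9 were kept under every alternative, and none changed sign. With 3 arrays per group, and OVE more variable than the other groups, intervals for Lcn2 span over 2 log2 units.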
